A study of Mus musculus with 8 samples.

Results

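CaMKII, calcineurin, their Rcan inhibitors and an NFAT factor form the calcium signalling arm of cardiac hypertrophy, and 10 of their genes were read out of a table of 23045 genes from mouse hearts with and without Mettl3 in cardiomyocytes. The members were the rows whose gene symbol was Camk2a, Camk2b, Camk2d, Camk2g, Ppp3ca, Ppp3cb, Ppp3r1, Rcan1, Rcan2 or Nfatc3. All 10 were listed, and each passed the filter on low values that left 20313 genes for testing. Total RNA of hearts was sequenced in 4 WT and 4 Mettl3 KO libraries. The WT libraries came from Mettl3 lox/lox mice without Cre, and the Mettl3 KO libraries from Mettl3 lox/lox mice with the αMHC-MerCreMer transgene. Mice of both groups were 10 to 16 weeks old at injection and, per the study's methods, received intraperitoneal tamoxifen at 100 µg per g of body weight on each of 7 days. MerCreMer, a tamoxifen-dependent Cre, is driven here by the αMHC promoter of heart muscle cells, so other heart cells keep the floxed gene. All Mettl3 KO mice and none of the WT mice carried Cre, so the loss of Mettl3 and the active Cre cannot be told apart. The time from tamoxifen to tissue collection is not given in the sources used here.

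Calcium that enters a heart muscle cell binds calmodulin, and calcium-bound calmodulin activates a kinase, CaMKII, and a phosphatase, calcineurin. CaMKII, built from subunits of the genes Camk2a, Camk2b, Camk2d and Camk2g, phosphorylates calcium handling proteins and drives class IIa histone deacetylases out of the nucleus, which frees MEF2 factors. Calcineurin, built from a catalytic A subunit and a regulatory B subunit, removes phosphate from NFAT factors so that they enter the nucleus, and Rcan proteins bind calcineurin and restrain it. Rcan1 is also a transcriptional target of NFAT and is widely used as a readout of calcineurin activity.

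Values are normalized read counts, the authors' DESeq2-scaled counts in whole numbers, and they summed to 2839589 to 2916986 per library. The targeted gene Mettl3 had 105, 133, 118 and 107 in the WT hearts, against 74, 68, 69 and 78 in the Mettl3 KO hearts, in the direction of the labels in all 8 (log2 fold change -0.67 with SE 0.10, adjusted p = 0.000184 by limma). Cardiomyocyte markers (8 genes, among them Ttn, Myh6 and Tnnt2) summed to 83769 to 90229 in WT and 82741 to 92592 in Mettl3 KO libraries, so the hearts carried the markers of their label. Most of this sum was Ttn, with 68741 to 74101 in WT and 67610 to 76105 in Mettl3 KO libraries. Atrial genes were uneven: Bmp10 was listed at 0 in every WT library. Mettl3 KO libraries 1 to 4 had Bmp10 values of 0, 195, 158 and 358. In bulk tissue fewer cells of a type and less RNA per cell cannot be told apart. Nothing in the labels says that libraries came from separate mice, so p-values measure the spread between these libraries.

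Fitted changes of the 10 members ran from -14.1% for Camk2b to 11.4% for Rcan1. With limma on log2(value + 1), 0 of 10 members had an adjusted p under 0.05, whereas 7.91% of all tested genes did (4.72% higher and 3.19% lower in Mettl3 KO hearts). Of tested genes with a mean value of 50 to 2000, the range in which the members lie, 13.3% passed. In a set of 10 genes, 0 passing is close to these shares. A member that did not pass was not shown to be unchanged. At an unadjusted p under 0.05 there was 1 of 10 members, Rcan1, against 20.6% of all tested genes. With limma voom the counts were also 0 adjusted and 1 unadjusted. Rcan1 was also the only member of the 10 whose groups did not overlap (10% of members), and 11.5% of all tested genes did not overlap. The median absolute log2 fold change was 0.03 over the members, 0.17 over all tested genes and 0.10 over the 9252 tested genes in the range of the members. For 8 of 10 members the 95% interval of the fitted change stayed within 15% in either direction, and Camk2b and Rcan1 were the exceptions.

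**Figure D1:**
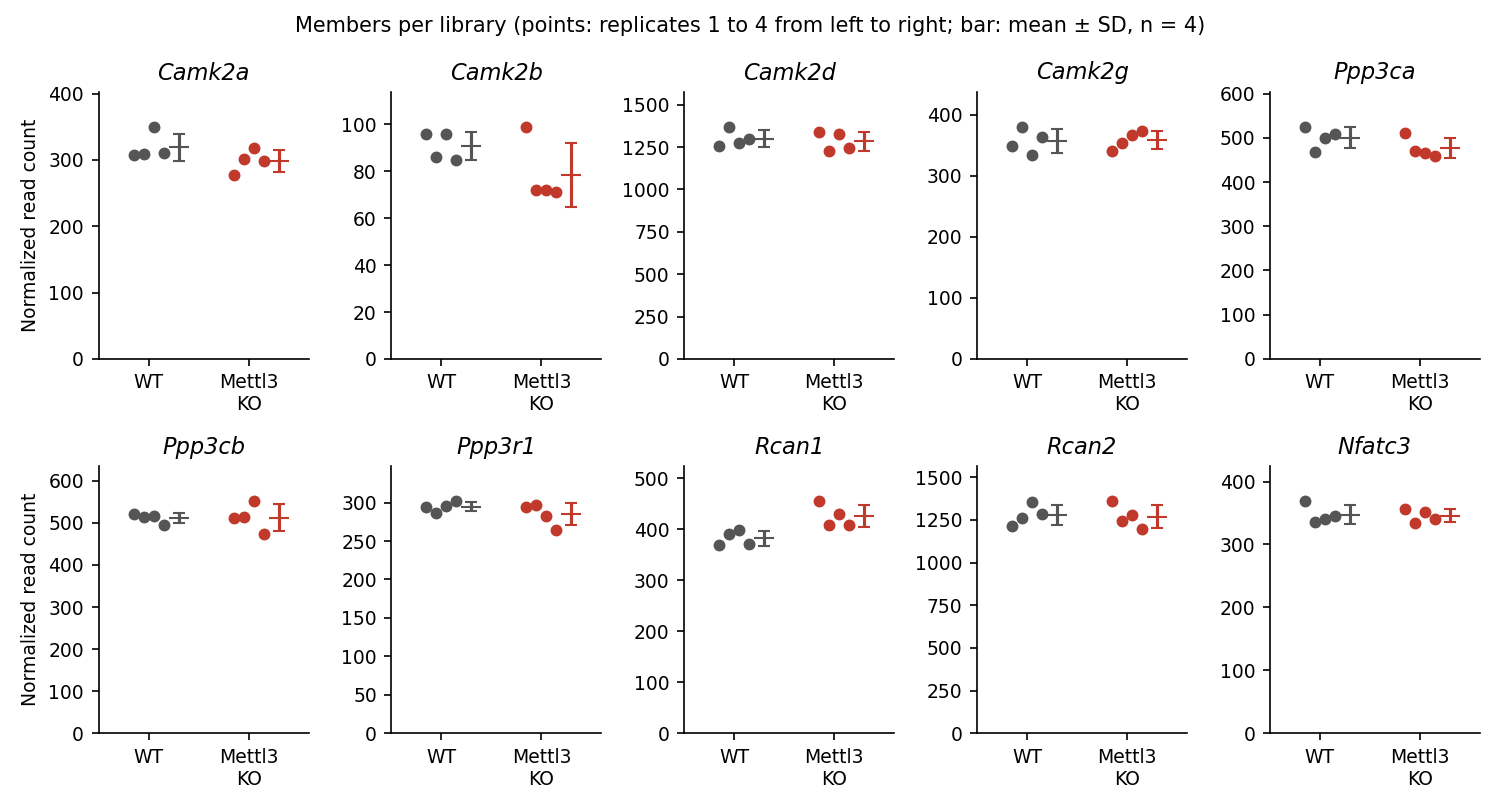
Normalized read counts of the 10 members in each library (vertical axes from 0), with WT in grey and Mettl3 KO in red and the mean ± SD (n = 4) to the right of the points. The genotypes overlap for every member except Rcan1, whose Mettl3 KO libraries (409 to 455) lie above the WT libraries (368 to 398).

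Of the CaMKII genes, Camk2d (ENSMUSG00000053819, mm39 chromosome 3, 126389951 to 126639975, plus strand), which encodes the main subunit in heart muscle, had the most reads. It had 1259, 1370, 1272 and 1297 normalized read counts in the WT hearts, against 1337, 1227, 1327 and 1246 in the Mettl3 KO hearts. The ranges overlapped widely. The means were 1299.5 ± 49.6 and 1284 ± 55.8 (SD, n = 4), and the fitted change of -1.19% had a 95% interval from -6.95% to 4.93% (log2 fold change -0.02 with SE 0.04, adjusted p = 0.881 by limma).

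Camk2g (ENSMUSG00000021820, chromosome 14, 20784943 to 20844156, minus strand), the other broadly expressed subunit gene, had 348, 380, 334 and 364 in the WT hearts, against 341, 353, 367 and 373 in the Mettl3 KO hearts. All Mettl3 KO values lay inside the WT range. Its fitted change was 0.62% (95% interval -7.45% to 9.38%, limma adjusted p = 0.960).

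Camk2a (ENSMUSG00000024617, chromosome 18, 61058690 to 61121224, plus strand) encodes the subunit best known from neurons, and in muscle the same gene also gives αKAP, an anchoring protein without a kinase domain. It had 307, 309, 350 and 311 normalized read counts in the WT hearts, against 277, 301, 318 and 298 in the Mettl3 KO hearts. WT library 3 stood above the other WT libraries, and only Mettl3 KO library 3 reached into the WT range. The log2 fold change of -0.10 (SE 0.06, with adjusted p = 0.438 by limma) did not pass, and its 95% interval ran from a change of -14.6% to 2.47%. Leaving out WT library 3 gave -0.05 and leaving out Mettl3 KO library 1 gave -0.06. Counts cover all exons of a gene, so the kinase and αKAP transcripts were not separated. Of 9 neuron and glia markers 6 were listed, and these summed to 105 to 132 in WT and 105 to 140 in Mettl3 KO libraries. Among the neuronal genes of the list Elavl4 was at most 3 in each library, and Stmn2 was 43 to 54 in WT and 32 to 48 in Mettl3 KO libraries. Their part in the Camk2a values was not tested.

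Camk2b (ENSMUSG00000057897, chromosome 11, 5919644 to 6016362, minus strand), a subunit gene of brain and skeletal muscle, was the least abundant member. WT libraries held 96, 86, 96 and 85, and Mettl3 KO libraries held 99, 72, 72 and 71. Mettl3 KO library 1 was higher than every WT library and the other 3 Mettl3 KO libraries were lower than every WT library, so the groups overlapped through a single library. The log2 fold change was -0.22 (SE 0.12, with adjusted p = 0.297 by limma), with a 95% interval from -27.2% to 1.45%. Leaving out Mettl3 KO replicate 1 gave -0.33 (adjusted p = 0.0572 by limma). Mettl3 KO library 1 was also the Mettl3 KO library with Bmp10 at 0, and the summed atrial markers (6 genes, 5 of them higher in Mettl3 KO hearts) were 2763, 3053, 3246 and 3397 in Mettl3 KO libraries 1 to 4 and 2254 to 2451 in WT. Most of the atrial sum was Pam, with 1463 to 1539 in WT and 1777 to 1895 in Mettl3 KO libraries. In library 1 Bmp10, Myl7 and Sln (0, 23 and 10) lay within the WT range, Pam (1840) and Nppa (452) lay above it, and Kcnj3 (438) lay below it. Their part in the Camk2b values was not tested. Skeletal muscle markers (8 genes, 0 higher and 1 lower) summed to 31 to 45 in WT and 29 to 40 in Mettl3 KO libraries. The lower one was Tnni2, a fast skeletal troponin gene, with 2 to 7 in WT and 0 to 2 in Mettl3 KO libraries (log2 fold change -1.60, adjusted p = 0.0381 by limma), and its relation to the Camk2b values was not tested.

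The shares of the CaMKII genes overlapped between the genotypes. Camk2d held 62.9% ± 0.788 of the summed normalized read counts of these 4 genes in WT and 63.6% ± 1.11 in Mettl3 KO hearts (SD, n = 4), Camk2g 17.3% ± 0.675 and 17.8% ± 0.907, Camk2a 15.5% ± 1.13 and 14.8% ± 0.885, and Camk2b 4.40% ± 0.384 and 3.88% ± 0.632. The sum itself was 2010 to 2145 in WT and 1953 to 2084 in Mettl3 KO libraries. These are shares of reads, and longer genes collect more of them.

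**Figure D2:**
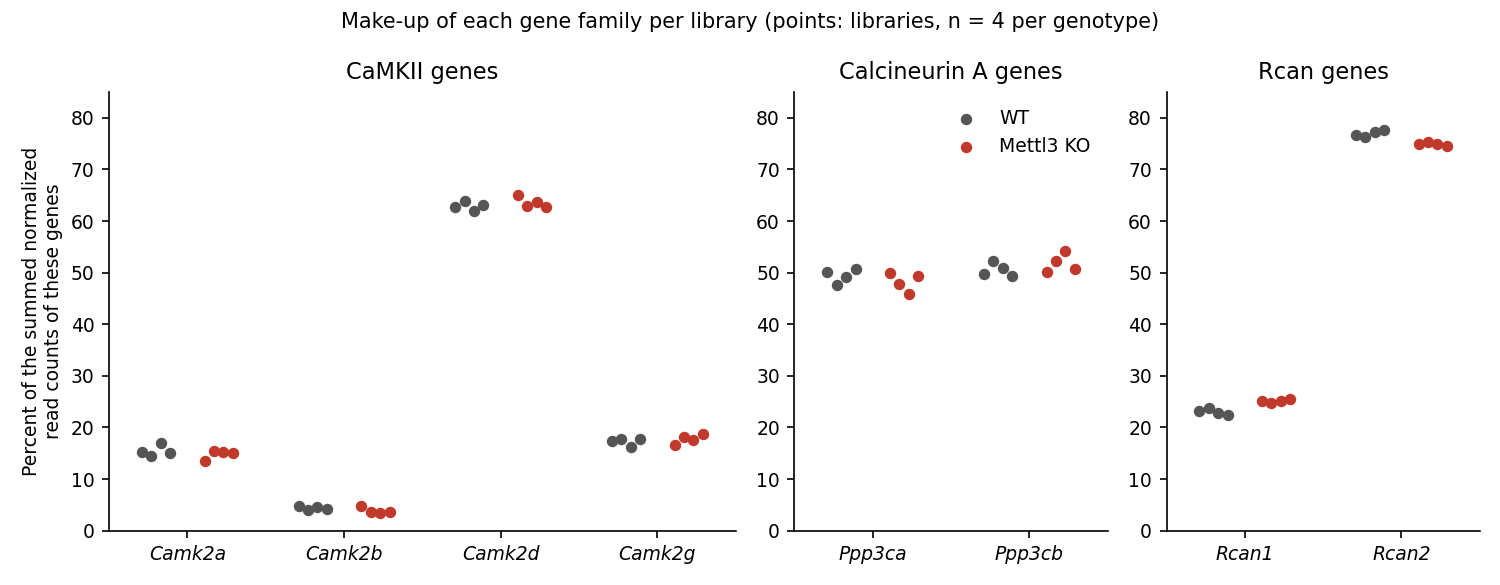
Share of each gene in the summed normalized read counts of its family (percent, vertical axis), by library, for the CaMKII, calcineurin A and Rcan genes, with WT in grey and Mettl3 KO in red. Camk2d makes up 62.0% to 65.1% of CaMKII reads in all libraries, and Rcan1 makes up 22.3% to 23.7% of Rcan reads in WT and 24.7% to 25.5% in Mettl3 KO libraries.

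Calcineurin was measured through its A subunit genes Ppp3ca and Ppp3cb and its B subunit gene Ppp3r1. Ppp3ca (ENSMUSG00000028161, chromosome 3, 136375885 to 136643488, plus strand) had 525, 468, 499 and 509 normalized read counts in the WT hearts, against 510, 470, 466 and 460 in the Mettl3 KO hearts. Mettl3 KO libraries 3 and 4 lay just under the WT range and the other two inside it. The fitted change was -4.73% (95% interval -11.8% to 2.86%, limma adjusted p = 0.523), or -0.07 on the log2 scale. Leaving out WT library 1 gave -0.05 and leaving out Mettl3 KO library 1 gave -0.10.

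Ppp3cb (ENSMUSG00000021816, chromosome 14, 20549432 to 20596641, minus strand) encodes the catalytic subunit most tied to cardiac hypertrophy in mice. Its values were 521, 514, 516 and 495 in the WT hearts, against 511, 514, 552 and 473 in the Mettl3 KO hearts, with the highest and the lowest value both in Mettl3 KO hearts. Means were 511.5 ± 11.4 and 512.5 ± 32.3 (SD, n = 4), a fitted change of 0.065% (95% interval -7.23% to 7.93%, limma adjusted p = 1). Ppp3cb gave 49.3% to 52.3% of the reads of Ppp3ca and Ppp3cb in WT and 50.05% to 54.2% in Mettl3 KO libraries. These are again shares of reads, not corrected for length.

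Ppp3r1 (ENSMUSG00000033953, chromosome 11, 17109263 to 17150375, plus strand), the calcium-binding regulatory subunit, had 294, 287, 296 and 302 in the WT hearts, against 294, 297, 283 and 265 in the Mettl3 KO hearts. Mettl3 KO library 4 was the lowest of all 8 and library 3 the next. Its fitted change was -3.46% (95% interval -11.4% to 5.21%, limma adjusted p = 0.716), or -0.05 on the log2 scale, and leaving out Mettl3 KO library 4 gave -0.02.

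Rcan1 (ENSMUSG00000022951, mm39 chromosome 16, 92188841 to 92267755, minus strand), a calcineurin inhibitor whose gene answers to calcineurin, was the member that differed most in these libraries relative to its error. It had 368, 391, 398 and 370 normalized read counts in the WT hearts, against 455, 409, 429 and 409 in the Mettl3 KO hearts. Each Mettl3 KO library lay above each WT library, and the nearest values were 398 and 409. Means were 382 ± 15 and 425.5 ± 21.8 (SD, n = 4). The fitted change was 11.4% with a 95% interval from 2.85% to 20.6%, on the log2 scale 0.16 with an SE of 0.06. After adjustment over all tested genes it did not pass (limma adjusted p = 0.0934), nor in any of 19 alternatives, where the adjusted p lay between 0.0681 and 0.283 and the log2 fold change between 0.12 and 0.18.

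Rcan2 (ENSMUSG00000039601, chromosome 17, 44112242 to 44350407, plus strand), the related inhibitor, had 1214, 1258, 1352 and 1286 in the WT hearts, against 1360, 1244, 1277 and 1196 in the Mettl3 KO hearts. The Mettl3 KO values spanned the whole WT range. Its fitted change was -0.68% (95% interval -6.85% to 5.90%, limma adjusted p = 0.942). Of the summed reads of Rcan1 and Rcan2, Rcan1 held 23.3%, 23.7%, 22.7% and 22.3% in the WT hearts, against 25.1%, 24.7%, 25.1% and 25.5% in the Mettl3 KO hearts. The means were 23.0% ± 0.598 and 25.1% ± 0.304 (SD, n = 4). Each Mettl3 KO share lay above each WT share, and the nearest were 23.7% and 24.7%. This share was looked at after the values were known and was given no test.

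**Figure D3:**
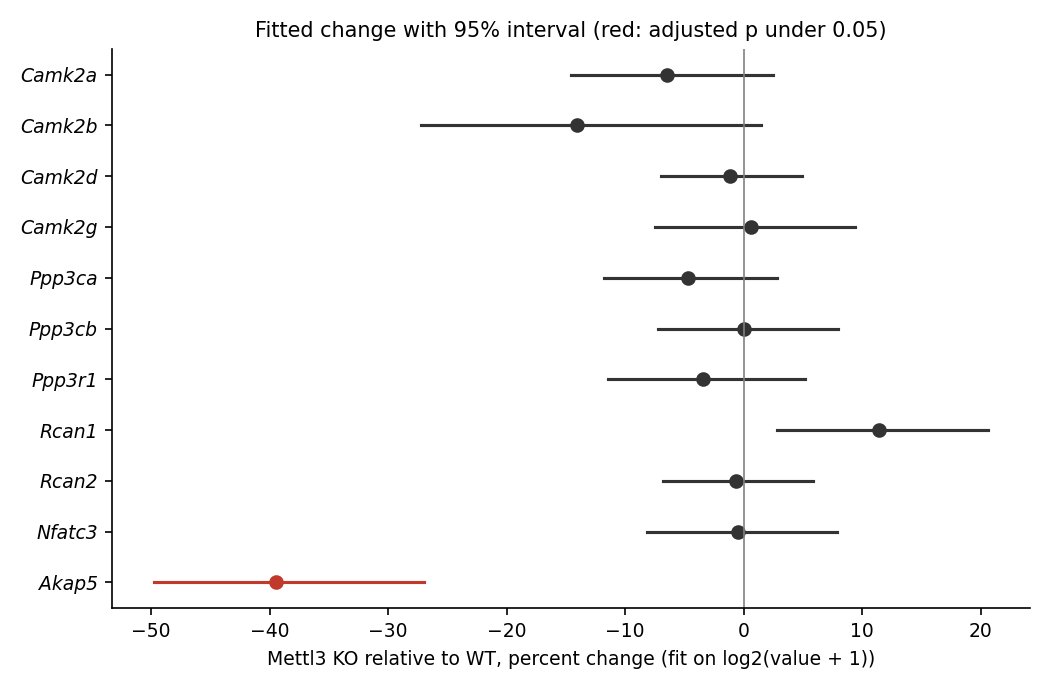
Fitted change of Mettl3 KO against WT hearts (percent, horizontal axis) with its 95% interval for the 10 members and for Akap5, a calcineurin anchor, in red as the gene with an adjusted p under 0.05. The intervals of 9 members include 0, that of Rcan1 runs from 2.85% to 20.6%, and that of Akap5 from -49.8% to -27.0%.

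Rcan1 has alternative first exons that start from separate promoters, and the inner promoter is the one known to answer to NFAT. As Rcan1 was the member nearest to a difference and its count sums both kinds of transcript, the promoter windows are shown, each from 250 bases before to 50 bases after a RefSeq start site (GRCm38.p6, minus strand, 5′ to 3′). Capitals mark the NFAT core GGAAA, the AP-1 motif TGACTCA and the CRE motif TGACGTCA, searched on both strands.
Rcan1 outer promoter, chr16:92466120-92466419: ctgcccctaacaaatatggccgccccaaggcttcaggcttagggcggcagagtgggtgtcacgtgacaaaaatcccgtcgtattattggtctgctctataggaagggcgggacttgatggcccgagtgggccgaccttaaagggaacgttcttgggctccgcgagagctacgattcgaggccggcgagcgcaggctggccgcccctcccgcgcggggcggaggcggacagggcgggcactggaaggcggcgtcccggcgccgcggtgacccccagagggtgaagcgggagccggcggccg
Rcan1 inner promoter, chr16:92400029-92400328: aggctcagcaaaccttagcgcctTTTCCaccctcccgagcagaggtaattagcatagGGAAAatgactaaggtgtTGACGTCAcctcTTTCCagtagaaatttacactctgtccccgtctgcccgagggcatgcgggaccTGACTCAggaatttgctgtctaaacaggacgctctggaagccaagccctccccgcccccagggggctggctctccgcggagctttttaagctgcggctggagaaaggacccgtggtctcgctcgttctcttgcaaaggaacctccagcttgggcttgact

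The outer window held none of these letters and had a GC content of 67.7%. The inner window had a GC content of 56.3% and held the NFAT core 3 times, at -227, -193 and -163 from the start site, the CRE motif at -175 and the AP-1 motif at -110. Among 32851 promoter windows of the same length in the RefSeq table, 61.3% held the NFAT core at least once, 5.20% the AP-1 motif and 1.79% the CRE motif. The NFAT core stood at least 3 times in 9.42% and at least 4 times in 2.65% of them. Windows of 7 of the 10 members are described, 11 windows in all, and Camk2a is not reported here. Ppp3cb held the NFAT core 4 times, a Rcan2 window 2 times, Camk2d and a Nfatc3 window once each, and Camk2b and Ppp3r1 held none. The AP-1 motif was also in another Rcan2 window. A match of letters is a description and no binding site. The motifs were chosen after the windows had been read, so the shares over all windows do not test the inner window. The coordinates of these windows belong to an earlier build than those of the expression table.

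Nfatc3 (ENSMUSG00000031902, mm39 chromosome 8, 106785472 to 106857169, plus strand) encodes an NFAT factor that calcineurin dephosphorylates. It had 369, 335, 340 and 345 normalized read counts in the WT hearts, against 356, 334, 352 and 340 in the Mettl3 KO hearts. The ranges overlapped widely, with a fitted change of -0.47% (95% interval -8.18% to 7.89%, limma adjusted p = 0.972). NFAT activity is set by phosphate and by entry into the nucleus, which transcript levels do not measure.

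To compare levels between genes, values were divided by merged exon length (GENCODE vM21, matched for all 10 members). On this scale of normalized read counts per kb, WT hearts ranked Rcan2 first at 292 ± 13.2 (SD, n = 4), then Rcan1 at 124 ± 4.87 and Ppp3r1 at 91.3 ± 1.92. Ppp3cb (58.1 ± 1.29), Camk2d (57.8 ± 2.20), Camk2g (55.7 ± 3.11) and Ppp3ca (50.1 ± 2.41) followed, and the WT values of each of these neighbours overlapped. Camk2a (42.8 ± 2.75), Nfatc3 (29.6 ± 1.28) and Camk2b (9.95 ± 0.666) came last, each apart from the next. The exons of Camk2d merge to 22.5 kb, the longest of the members, and per kb its values overlapped those of Camk2g. Camk2d was the higher of the pair in each WT library. In Mettl3 KO libraries 2 and 4 it was the lower (54.6 against 55.1, and 55.4 against 58.3), and in the other Mettl3 KO libraries the higher. Merged exons include rare ends and alternative exons, and a gene's level per kb is low where few transcripts use them.

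Other genes of these pathways were taken from 5 lists with 54 genes, of which 53 were listed and 52 tested. With limma 1 of 52 (1.92%) passed, against 7.91% of all tested genes, and it was lower in Mettl3 KO hearts. At an unadjusted limma p under 0.05 there were 12 of 52 (9 lower and 3 higher), against 20.6% of all tested genes. Akap5 (ENSMUSG00000021057, mm39 chromosome 12, 76371665 to 76380927, plus strand) encodes the scaffold AKAP79/150, which anchors calcineurin and protein kinase A at the membrane. It had 100, 100, 73 and 93 normalized read counts in the WT hearts, against 57, 64, 45 and 54 in the Mettl3 KO hearts, with no overlap. The means were 91.5 ± 12.8 and 55.0 ± 7.87 (SD, n = 4), and the log2 fold change was -0.72 (SE 0.13, with adjusted p = 0.000879 by limma). It was lower in Mettl3 KO hearts in each of 19 alternatives and passed in 18 of 19. Without the mean-variance trend the adjusted p was 0.0590. Fibroblast, atrial and endothelial markers also differed between the genotypes, and their part in the Akap5 values was not tested.

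In the other lists no gene passed. Among 11 calmodulin and CaM kinase genes the median log2 fold change was -0.01. Camk2n1, an inhibitor protein of CaMKII, had 152 to 195 in WT and 152 to 193 in Mettl3 KO libraries (limma adjusted p = 0.916).

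The 11 tested calcineurin partners, Akap5 included, had a list median of -0.02. Myoz2, the calsarcin that holds calcineurin at the Z-disc, had 676 to 809 in WT and 779 to 840 in Mettl3 KO libraries (log2 fold change 0.16 with SE 0.05, adjusted p = 0.0729 by limma), and leaving out WT replicate 4 gave 0.21 (adjusted p = 0.0148 by limma). Rcan3, the third Rcan gene, had 92.3 ± 8.42 and 104 ± 4.27 (SD, n = 4; log2 fold change 0.18, limma adjusted p = 0.311). Ppp3cc, the remaining catalytic subunit gene, had 136.5 ± 12.9 and 134.5 ± 5.74 (SD, n = 4).

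Of 9 NFAT factors and NFAT kinases, with a median of 0.03, Nfat5 had the most reads (1107 to 1172 in WT, 1135 to 1213 in Mettl3 KO, limma adjusted p = 0.499). It is the NFAT relative that does not depend on calcineurin. Of the 12 MEF2, class IIa HDAC and protein kinase D genes 11 were tested, with a median of -0.06. Mef2a had the most reads, with means of 1671 ± 62.7 (WT) and 1557 ± 58.1 (Mettl3 KO; SD, n = 4), or -0.10 on the log2 scale with an SE of 0.04 (limma adjusted p = 0.126). It passed in 4 of 19 alternatives, with voom (adjusted p = 0.0245), equal totals (adjusted p = 0.0497), quantile normalization (adjusted p = 0.0386) and without Mettl3 KO replicate 1 (adjusted p = 0.0416), all with limma. The 10 calcium entry and store release genes had a median of -0.06, and Itpr1, an inositol trisphosphate receptor, had 1179 to 1256 in WT and 1166 to 1253 in Mettl3 KO libraries (limma adjusted p = 0.947).

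Groups did not overlap for 5 of the 52 genes (9.62%), against 11.5% of all tested genes. Besides Akap5 these were Gsk3a, Hdac5 and Itpr2, lower in Mettl3 KO hearts, and Nfatc1, higher, named here after their values were seen. Gsk3a, a kinase that sends NFAT out of the nucleus, had 124 to 136 in WT and 102 to 113 in Mettl3 KO libraries (log2 fold change -0.23 with SE 0.08, adjusted p = 0.104 by limma). Itpr2, the main inositol trisphosphate receptor of heart muscle cells, had 637 to 669 in WT and 590 to 609 in Mettl3 KO libraries (log2 fold change -0.12 with SE 0.04, adjusted p = 0.0942 by limma). Reads of Ppia and Fkbp1a can be lost to near-identical copies, since multi-mapping reads were removed.

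**Figure D4:**
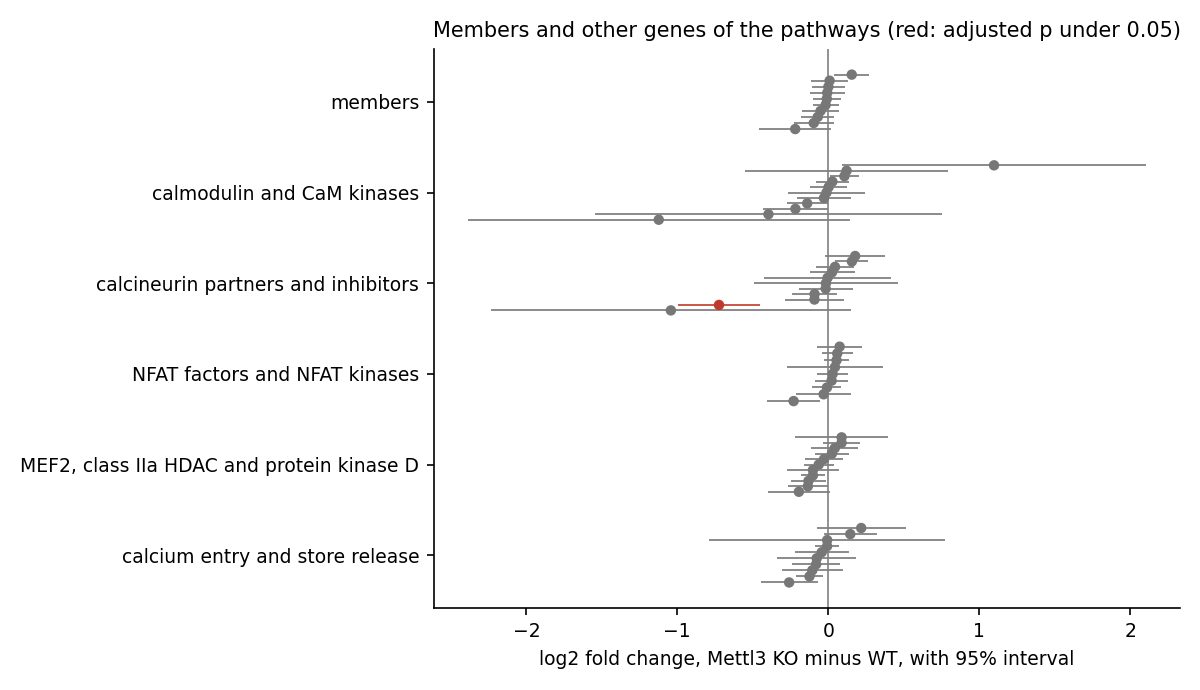
Log2 fold changes of Mettl3 KO against WT hearts with their 95% intervals (horizontal axis) for the 10 members and for 52 other pathway genes in 5 lists, each point a gene. All but Akap5 (red) have an adjusted p of at least 0.05, and the widest intervals belong to genes with low values.

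Markers of other cell types moved with genotype and are given beside Rcan1, which had the only distinct groups among the members. Fibroblast markers (8 genes, 7 higher and 0 lower) summed to 3648 to 4172 in WT and to 5598, 4711, 5671 and 5375 in Mettl3 KO libraries 1 to 4. Mettl3 KO library 2 was the lowest of these, and it had a Rcan1 value of 409, as did library 4. Endothelial markers (8 genes, 0 higher and 3 lower) summed to 4868 to 5063 in WT and 4245 to 4620 in Mettl3 KO libraries. Smooth muscle and pericyte markers (7 genes, 0 higher and 1 lower) summed to 4370 to 4773 and 4086 to 4381 although their median log2 fold change was 0.14, and macrophage markers (7 genes, none called) to 900 to 1062 and 878 to 1081. Summed atrial markers were lowest, among Mettl3 KO libraries, in library 1, where Rcan1 was highest. Mettl3 KO libraries 1 and 3, with the highest Rcan1 values, also had the highest cardiomyocyte marker sums (92334 and 92592, of which 75514 and 76105 were Ttn). These libraries had the highest totals as well (2916986 and 2902946). In each of them 7 of 10 members lay above their Mettl3 KO mean, against 3 in library 2 and 1 in library 4. With totals made equal the log2 fold change of Rcan1 was 0.15 (adjusted p = 0.1003 by limma). The part of cell composition in the Rcan1 values was not tested.

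**Figure D5:**
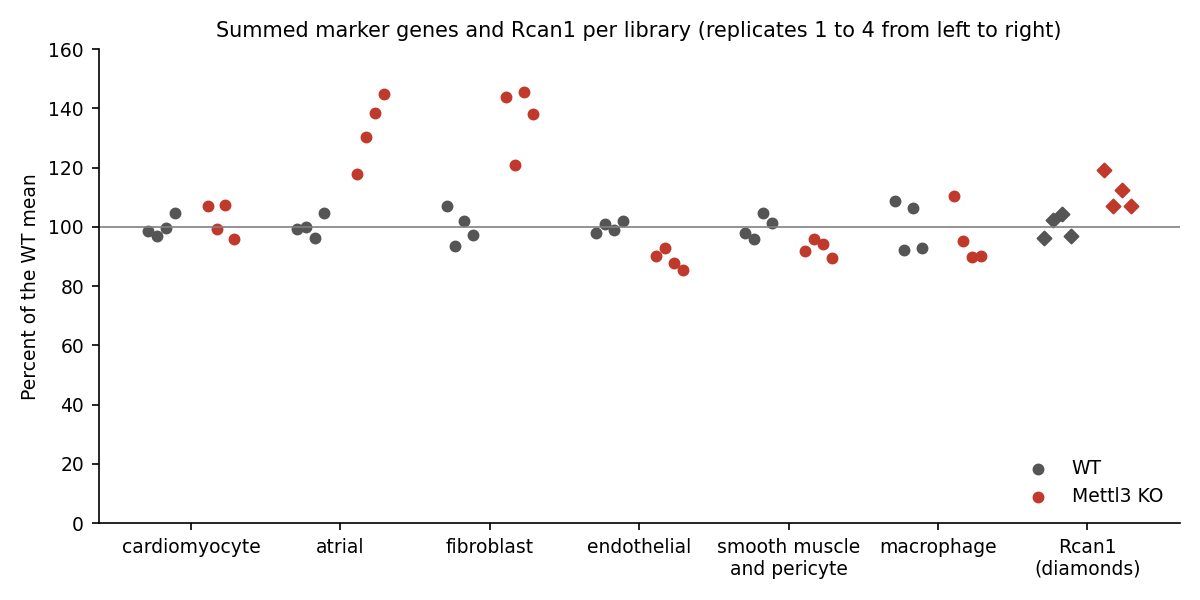
Summed marker genes of 6 lists and Rcan1 (diamonds) in each library as a percent of the WT mean (vertical axis from 0), with WT in grey, Mettl3 KO in red and replicates 1 to 4 from left to right. In Mettl3 KO libraries fibroblast sums reach 121% to 146% of the WT mean and endothelial sums 85.5% to 93.0%. Atrial sums reach 118% to 145%, and in library 1 (118%) 2 of the 6 genes lie above, 1 below and 3 within their WT ranges.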

How the data were processed

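Per the study's methods and the submitters' processing notes, the authors trimmed single-end reads with Trimmomatic 0.39, aligned them to mm39 with STAR 2.7.11a, removed duplicates with Picard 3.1.1 and multi-mapping, ribosomal and mitochondrial reads, counted exon reads by strand with featureCounts 2.0.4 and normalized them with DESeq2 1.36.0. The deposited values are a score, normalized counts rounded to whole numbers, so edgeR and DESeq2 were not run on them, voom, which models counts, served only as an alternative, and the depth in reads was not computed here.

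The members and gene lists were chosen with earlier results of these data known. After 2732 genes whose mean was under 1 had been dropped, limma 3.58.1 (R 4.3.3) compared the genotypes for the other 20313 on log2(value + 1). No further term entered, prior variances followed the mean level, and the two-sided p was adjusted over all tested genes by Benjamini-Hochberg. A fold change on this scale understates that of low genes. Percent changes and 95% intervals come from the same fit, and the intervals are not adjusted for multiple testing. Named genes were the members, Mettl3, each listed pathway gene with an adjusted p under 0.05 and the gene of each list with the highest mean, of which some results are not reported here. Promoters are those of RefSeq (GRCm38.p6), and the motifs were chosen after the windows had been read. Alternatives were other pseudocounts, filters, variance models and scalings, the replicate number as a block and each library left out.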

Additional observations from a re-analysis of the deposited data

Results flagged for a closer look

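In each genotype and for each member, the library farthest out was compared with its nearest neighbour, as a share of the range of the group, against Dixon's critical value for 4 samples at the 95% level. Of 20 groups 2 were marked, and chance marks about 1 in 20. Camk2a in WT libraries gave 0.907, with replicate 3 at 350 against 307 to 311. Camk2b in Mettl3 KO libraries gave 0.964, with replicate 1 at 99 against 71 to 72.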

How the results depend on the processing

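None of the 10 members had a limma adjusted p under 0.05 in any of the 19 alternatives. Of 20313 tested genes 1607 passed, against 321 without the mean-variance trend, and 1005 to 1593 with a library left out, the lowest without Mettl3 KO replicate 3. Of the pathway genes 1 passed, 0 without the trend, 2 with voom, equal totals or quantile normalization (Akap5 and Mef2a each time), and 1 to 3 with a library left out, the highest without WT replicate 4 (Akap5 and Myoz2 among them). With the replicate block 1346 genes, 0 members and 1 pathway gene passed. The replicate numbers were not shown to pair the libraries, since deviations of same-numbered libraries correlated at 0.061, 0.017, -0.11 and 0.11 over 9313 genes, and 1 of 4 WT libraries correlated best with its own number.

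Values near 0 changed sign in 22 cases, the largest at -0.035 and none past the threshold; the cause was not tested. Camk2g was -0.0016 with voom, -0.0015 with equal totals and -0.00060 with the upper quartile, and Ppp3cb was -0.0090, -0.0094 and -0.0085. With a library left out the log2 fold changes lay between -0.037 and 0.0084 for Camk2d, -0.022 and 0.040 for Camk2g, -0.035 and 0.039 for Ppp3cb, -0.044 and 0.018 for Rcan2, -0.024 and 0.023 for Nfatc3, and -0.028 and 0.011 for Itpr1. The median log2 fold change of all genes was -0.01 to -0.02 under the scalings tried. With library 3 of WT left out Camk2a was -0.051 (all such settings -0.13 to -0.051), and with library 4 of Mettl3 KO left out Ppp3r1 was -0.017 (-0.071 to -0.017), both short of the threshold. Camk2b had the lowest values, 71 to 99 per library.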
